A study of Homo sapiens with 18 samples.

Results

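The 53 genes described here encode proteins of 4 DNA repair routes: 5 of mismatch repair, 18 of nucleotide excision repair, 18 of base excision and single-strand break repair, and 12 of end joining. They were taken by symbol from the 27781 genes of the deposited count table, by a list that sets no threshold on a measured value but was drawn up with earlier results of these data known, and each was assigned to 1 pathway although some serve several. All 53 had enough counts to be tested.

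Mismatch repair removes bases mispaired during replication: MutS proteins bind the mismatch and MutL proteins direct excision of the new strand. Nucleotide excision repair cuts out a short stretch of DNA around a bulky lesion, after recognition by XPC or by a stalled RNA polymerase and unwinding by the general transcription factor TFIIH. Base excision repair starts with a glycosylase that removes 1 damaged base, continues with cleavage of the abasic site, and ends with gap filling and ligation, steps that it shares with repair of single-strand breaks. End joining rejoins both ends of a broken DNA molecule, which are held by the Ku proteins and the kinase DNA-PK and sealed by DNA ligase IV.

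RNA was sequenced from K562, a human leukemia line with erythroid and megakaryocytic features. Cells had been given antisense gapmers, short oligonucleotides that direct RNase H to a matching RNA. In the knockdown group these were aimed at the junction that closes circPCMTD1, a circle of PCMTD1 exons, and in the control group their sequence was scrambled. RNA was taken 48 hours after transfection in both groups, and no untransfected cells were analysed here. The labels' descriptions call the same oligonucleotides siRNA, while their protocols and treatment fields call them gapmers. The design gives each group 3 biological replicates with 3 technical libraries each, so 18 libraries in all. The labels do not say which of the 2 numbers in a library name is the biological replicate. The first was taken, and the libraries that share it were summed to give 3 knockdown and 3 scrambled samples.

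Libraries held 19118533 to 29432699 counts and summed samples 63851576 to 76087774. Levels are given as CPM, counts scaled by the TMM-adjusted library size, and errors are SDs over 3 summed samples. Counts of PCMTD1, which add circular and linear RNA, were 20.0, 19.8 and 21.9 CPM in the scrambled samples and 12.6, 11.7 and 12.5 CPM in the knockdown samples. PCMTD1 fell by 0.74 on the log2 scale (SE 0.052, adjusted p = 7.57e-10, edgeR), and its groups did not overlap. Erythroid markers of K562 were present, with the transcription factor gene GATA1 at 219 to 245 CPM and the fetal globin gene HBG2 at up to 5546 CPM. Of the markers of other cells, MS4A1 was at 0 in every sample and CD3E reached 0.125, CD14 0.788, COL1A2 0.928, COL1A1 2.25 and CD3D 6.53 CPM, while LYZ lay at 35.6 to 46.7 and EPCAM at 45.4 to 48.8 CPM. Because the RNA is from whole cultures, fewer cells of a type and less RNA per cell cannot be told apart.

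The levels of the repair genes in scrambled cells ran from 0.160 to 124 CPM per kb of exon, the scale used for all comparisons between genes. The end joining genes of the DNA-PK complex were the most abundant of all members. PRKDC, the catalytic subunit of DNA-PK, stood at 124 CPM per kb, and XRCC6 and XRCC5, which encode the Ku70 and Ku80 proteins that ring a broken DNA end, at 110 and 74.4 CPM per kb. APLF, which encodes a scaffold that binds Ku and poly(ADP-ribose), was the lowest end joining gene at 0.333 CPM per kb. LIG4, the ligase that completes the same reaction, stood at 2.25 CPM per kb.

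In base excision and single-strand break repair, PARP1, the main sensor of strand breaks, led with 64.1 CPM per kb, followed by the abasic site endonuclease gene APEX1 with 56.4 CPM per kb. The glycosylase gene NEIL1 was the lowest of all 53 members on this scale, at 0.160 CPM per kb. In nucleotide excision repair RAD23B, a partner of XPC, led with 52.4 CPM per kb, ahead of DDB1 with 39.7 CPM per kb. Merged exons came to 4.615 kb for RAD23B and 13.95 kb for DDB1. By CPM alone DDB1 stood higher, at 553 CPM beside 242 CPM for RAD23B. ERCC5, which encodes the nuclease XPG that cuts 3′ of the lesion, was the lowest of the pathway with 0.271 CPM per kb. Mismatch repair genes lay closer together, from MLH3, a MutL subunit, at 3.77 CPM per kb to MSH6, a MutS subunit, at 18.4 CPM per kb.

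**Figure D1:**
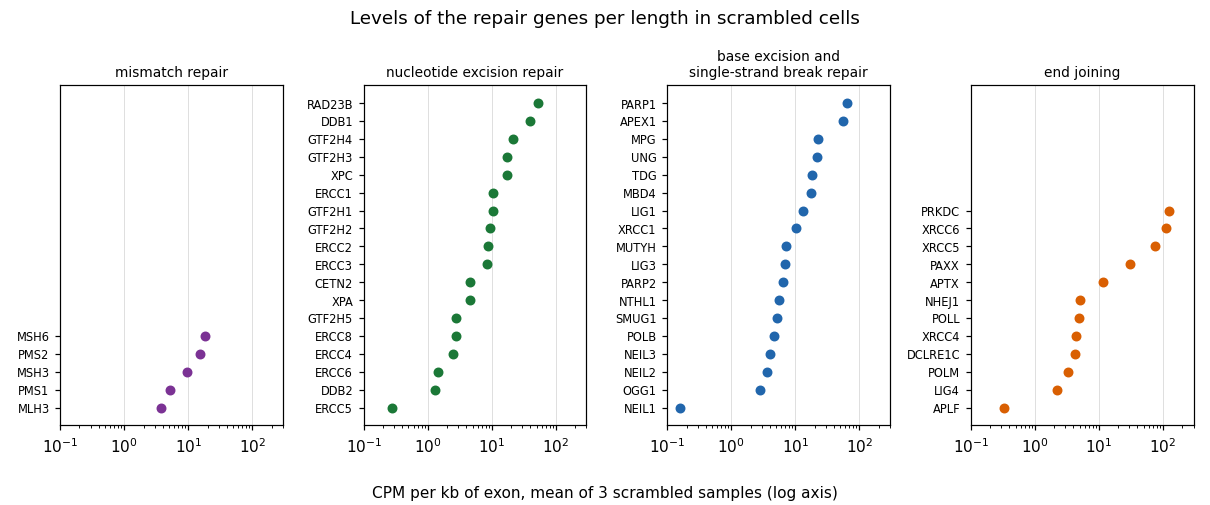
Level of each of the 53 repair genes in scrambled cells as CPM per kb of exon (mean of 3 summed samples, log axis), in 4 panels by pathway, each gene on a line of its own. PRKDC, XRCC6 and XRCC5 of end joining stand at 124, 110 and 74.4 CPM per kb, and NEIL1, ERCC5 and APLF at 0.160, 0.271 and 0.333 CPM per kb.

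The comparison of knockdown with scrambled cells asked whether repair genes changed when the circular RNA was targeted, a question raised by the title of the series, which names the DNA damage response. Of the 53 genes 6 were raised: ERCC2 and GTF2H1 of nucleotide excision repair, XRCC1, LIG1 and MPG of base excision and single-strand break repair, and LIG4 of end joining. Genes were called at an adjusted p below 0.05 in the quasi-likelihood test of edgeR, by which none was lowered, and 4 had a negative change at an unadjusted p below 0.05. DESeq2 called 0 lowered. The 6 raised genes are 11.3% of the members, beside 11.1% raised among all 15678 genes tested, and the 0 lowered stand beside 7.49% lowered. In either direction 18.6% of all tested genes were called. In 7 members all 3 knockdown samples lay above the 3 scrambled samples and in 7 all lay below, beside 18.1% and 16.5% of all tested genes.

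Changes were small. The median log2 fold change over the 53 members was 0.0011, and 0.0022 over all tested genes, while the median size of the change regardless of sign was 0.061 for members and 0.081 for all tested genes. Only ERCC5, at 2.24 CPM in scrambled cells, had an estimate beyond 1.2-fold, which is 1.89% of members beside 16.0% of all tested genes. At a mean of 5 CPM or more no member of 50 went beyond 1.2-fold, and 4.24% of the 10480 tested genes at that level did. Among those genes 22.2% were called in either direction, and 12% of the members. The median SE of a member's log2 fold change was 0.040. The p-values rest on the spread between summed samples, which may be largely technical.

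The raised share of each pathway was read beside the 11.1% of all tested genes. Mismatch repair had 0 raised of 5, too few genes to set against that share, with a median log2 fold change of -0.05, and nucleotide excision repair 2 of 18 (11.1%) with a median of 0.02. Base excision and single-strand break repair had 3 raised of 18 (16.7%) with a median of 0.0040, and end joining 1 of 12 (8.33%) with a median of -0.02. None of the pathways had a lowered gene, and a difference between pathways was not tested.

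**Figure D2:**
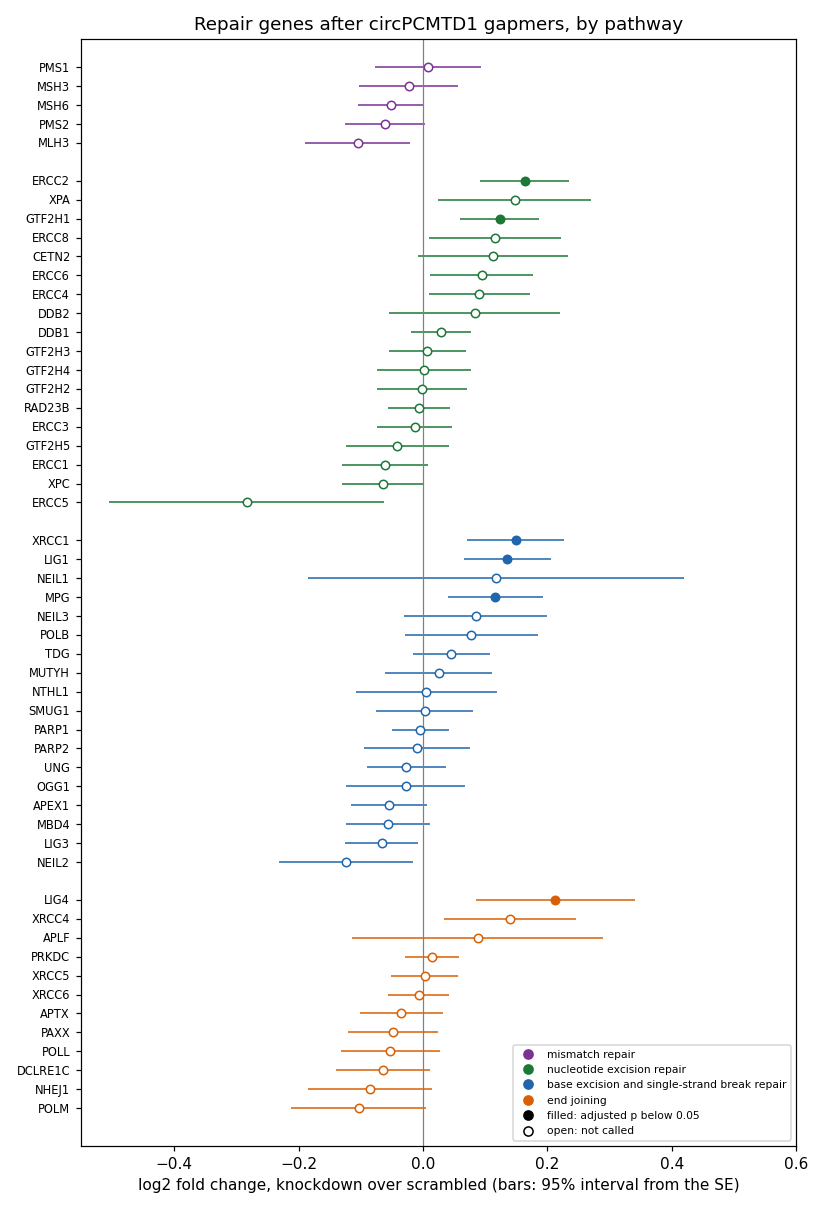
Log2 fold change of each repair gene, knockdown over scrambled, grouped by pathway and sorted within it, with 3 summed samples per group. Bars are 95% intervals from the SE by a normal approximation, which is narrower than the edgeR test implies. Filled points passed an adjusted p below 0.05 in edgeR. The 6 filled points lie to the right of 0, between 0.12 and 0.21, and ERCC5 at -0.28 has one of the widest bars.

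In mismatch repair 4 of 5 genes had negative estimates and none was called. MLH3, on chromosome 14 (minus strand, 75013764 to 75051532, GRCh38 as for all positions here), had the smallest adjusted p of the pathway. It stood at 31.6, 32.2 and 30.6 CPM in scrambled samples and at 29.6, 27.4 and 30.8 CPM in knockdown samples. The groups overlapped through knockdown sample 3, and the log2 fold change was -0.10 (SE 0.043, adjusted p = 0.0962, edgeR). MLH3 was called lowered under 8 of 18 alternatives, with -0.14 and an adjusted p of 0.000694 when knockdown libraries 3_2 and 3_3 were left out, and -0.14 and 0.00337 without knockdown replicate 3.

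MSH6, part of the MutS pair that binds single mismatches, was the most abundant mismatch repair gene. Its levels were 202, 201 and 204 CPM in scrambled and 193, 193 and 199 CPM in knockdown samples, so the groups did not overlap although the log2 fold change was only -0.05 (SE 0.027, adjusted p = 0.186, edgeR). Without knockdown libraries 3_2 and 3_3 it was at -0.08 with an adjusted p of 8.19e-05, and it was called lowered under 6 of 18 alternatives. PMS2, the MutL endonuclease subunit, was at -0.06 and did not overlap either, and MSH3, which binds larger loops, and PMS1 were at -0.02 and 0.01. PMS2 has several pseudogenes in the table, so its reads may be split among copies. FBXO11 overlaps 16.2% of the exons of MSH6 on the other strand and was at -0.09 (adjusted p = 0.0677, edgeR).

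In nucleotide excision repair both raised genes encode subunits of TFIIH, the complex that opens DNA at lesions and at promoters. ERCC2, on chromosome 19 (minus strand, 45349837 to 45370918), encodes the XPD helicase of TFIIH. It stood at 57.5, 55.4 and 56.5 CPM in scrambled samples and at 63.9, 65.9 and 59.9 CPM in knockdown samples. All knockdown samples lay above all scrambled ones, with sample 3 the lowest of them. ERCC2 rose from 56.5 ± 1.09 to 63.2 ± 3.07 CPM (SD, n = 3), a log2 fold change of 0.16 (SE 0.036, adjusted p = 0.0030, edgeR). It was raised under all 18 alternatives, with log2 fold changes from 0.13 to 0.20. KLC3 overlaps 8.3% of its exons on the other strand and stood at 0.31 CPM or less.

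GTF2H1, on chromosome 11 (plus strand, 18322295 to 18367044), encodes the p62 subunit of TFIIH, which docks XPC. Its levels were 71.5, 72.2 and 70.8 CPM in scrambled samples and 75.6, 77.6 and 80.5 CPM in knockdown samples, without overlap. GTF2H1 rose from 71.5 ± 0.685 to 77.9 ± 2.51 CPM (SD, n = 3), with a log2 fold change of 0.12 (SE 0.032, adjusted p = 0.0100, edgeR). The call was lost without scrambled replicate 1 (adjusted p = 0.0555, edgeR) and without scrambled replicate 3 (0.0577). The other 5 TFIIH members were not called: the helicase gene ERCC3 was at -0.01, GTF2H2 at -0.0018, GTF2H3 at 0.01, GTF2H4 at 0.0011 and GTF2H5 at -0.04 on the log2 scale. GTF2H2 has the near copies GTF2H2B and GTF2H2C in the table, and 79.0% of the exons of GTF2H4 lie within those of VARS2 on the same strand, so both are uncertain.

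The remaining nucleotide excision repair genes were not called. Of the damage recognition genes, XPC was at -0.06, its partners RAD23B and CETN2 at -0.01 and 0.11, and DDB1 and DDB2, which bind ultraviolet lesions in chromatin, at 0.03 and 0.08. RAD23B stood at 241, 244 and 240.1 CPM in scrambled and 238, 239 and 245 CPM in knockdown samples, and knockdown samples lay on both sides of the scrambled ones. ERCC6 and ERCC8, which act where RNA polymerase has stalled, were at 0.09 and 0.12, and XPA, which checks the lesion, at 0.15 with an adjusted p of 0.108 in edgeR. Of the nucleases that cut beside the lesion, ERCC1 was at -0.06 and its partner ERCC4 at 0.09.

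ERCC5, on chromosome 13 (plus strand, 102807146 to 102876001), had the largest estimate of any member but was not called. It stood at 2.16, 2.34 and 2.22 CPM in scrambled and 1.64, 1.98 and 1.90 CPM in knockdown samples. All knockdown samples lay lower, with a log2 fold change of -0.28 (SE 0.11, adjusted p = 0.0850, edgeR), and no alternative called it. Its summed counts were 115 to 165 per sample, among the lowest of the members. BIVM-ERCC5, a readthrough gene that covers 63.2% of its exons on the same strand, was at 0 in all samples. BIVM overlaps 19.1% of its exons on the same strand and stood at 10.8 to 12.4 CPM. BIVM was raised, by 0.16 on the log2 scale (adjusted p = 0.0353, edgeR). How reads were divided among these genes is uncertain.

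In base excision and single-strand break repair the raised genes were a glycosylase, the scaffold and a ligase. XRCC1, on chromosome 19 (minus strand, 43543040 to 43580473), encodes the scaffold that gathers polymerase and ligase at a nick. It stood at 35.8, 35.5 and 36.8 CPM in scrambled samples and at 41.6, 40.6 and 37.5 CPM in knockdown samples. The groups did not overlap, and knockdown sample 3 lay nearest to the scrambled ones. XRCC1 rose from 36.0 ± 0.697 to 39.9 ± 2.11 CPM (SD, n = 3), with a log2 fold change of 0.15 (SE 0.040, adjusted p = 0.0113, edgeR). The call was lost without scrambled replicate 1 or 2 (adjusted p = 0.0629 and 0.0679, edgeR) and without knockdown replicate 1 or 2 (0.0662 and 0.0571).

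LIG1, on chromosome 19 (minus strand, 48115445 to 48170603), encodes DNA ligase I, which seals long repair patches and Okazaki fragments. Its levels were 88.0, 86.1 and 84.5 CPM in scrambled and 96.8, 98.2 and 89.0 CPM in knockdown samples. As for ERCC2 and XRCC1, the groups did not overlap and knockdown sample 3 was the lowest of its group. LIG1 rose from 86.2 ± 1.74 to 94.7 ± 4.98 CPM (SD, n = 3), with a log2 fold change of 0.14 (SE 0.036, adjusted p = 0.0101, edgeR). The call was lost without scrambled replicate 2 or 3 (adjusted p = 0.0522 and 0.0678, edgeR) and without knockdown replicate 2 (0.0801).

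LIG3, on chromosome 17 from 34980494 to 35009743, encodes the ligase that works with XRCC1, and its estimate had the opposite sign. It was at -0.07 (SE 0.030, adjusted p = 0.130, edgeR), with 88.5 ± 0.541 CPM in scrambled and 84.5 ± 0.751 CPM in knockdown samples (SD, n = 3) and no overlap between groups. Under 7 of 18 alternatives LIG3 was called lowered, with an adjusted p of 0.00933 in edgeR without knockdown libraries 3_2 and 3_3 and 0.0146 without knockdown replicate 3. The count of LIG1 divided by that of LIG3, a pair chosen after the values were seen, was 0.974 ± 0.0137 in scrambled and 1.12 ± 0.0648 in knockdown samples (SD, n = 3). RFFL overlaps 29.1% of the exons of LIG3 on the other strand and stood at 5.78 to 6.59 CPM.

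MPG, on chromosome 16 (plus strand, 77007 to 85853), encodes the glycosylase that removes alkylated purines. It stood at 37.0, 37.6 and 36.7 CPM in scrambled and at 40.9, 41.8 and 37.9 CPM in knockdown samples, with the third knockdown sample only just above the scrambled ones. MPG rose from 37.1 ± 0.460 to 40.2 ± 2.00 CPM (SD, n = 3), with a log2 fold change of 0.12 (SE 0.039, adjusted p = 0.0398, edgeR). This was the largest adjusted p of the 6. It was lost with DESeq2 (adjusted p = 0.0690), without scrambled replicate 1, 2 or 3 (adjusted p = 0.132, 0.0906 and 0.137, edgeR) and without knockdown replicate 1 or 2 (0.112 and 0.209). The neighbouring gene NPRL3 overlaps 27.3% of the exons of MPG on the other strand and was at -0.07 (adjusted p = 0.151, edgeR).

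The other 10 glycosylase genes were not called. NEIL2 and OGG1 were at -0.12 and -0.03, MBD4 at -0.06, UNG at -0.03, SMUG1 at 0.0026, NTHL1 at 0.01, MUTYH at 0.03, TDG at 0.05, NEIL3 at 0.08 and NEIL1 at 0.12. NEIL1 stood at 0.953, 1.09 and 1.28 CPM in scrambled and 1.19, 1.09 and 1.31 CPM in knockdown samples, on 70 to 86 counts per sample, and its SE of 0.15 exceeds its estimate. MAN2C1 overlaps 26.4% of the exons of NEIL1 on the other strand and stood at 54.1 to 63.3 CPM. It was lowered, at -0.13 (adjusted p = 0.0108, edgeR). APEX1, which cuts abasic sites, was at -0.05, and POLB, the polymerase that fills the gap, at 0.08. PARP1 stood at 466, 456 and 456 CPM in scrambled and at 463, 458 and 453 CPM in knockdown samples. Its log2 fold change of -0.0044 had a 95% interval from -0.05 to 0.04, and PARP2 was at -0.01.

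In end joining LIG4 was the only raised gene and had the largest estimate of the 6. LIG4, on chromosome 13 (minus strand, 108207439 to 108218368), stood at 9.71, 9.48 and 10.4 CPM in scrambled and at 10.3, 11.7 and 12.4 CPM in knockdown samples. Here the groups overlapped, because knockdown sample 1 lay below scrambled sample 3, and knockdown sample 3 was the highest of all. LIG4 rose from 9.86 ± 0.473 to 11.4 ± 1.09 CPM (SD, n = 3), with a log2 fold change of 0.21 (SE 0.065, adjusted p = 0.0254, edgeR). It was lost with DESeq2 (adjusted p = 0.0538) and, in edgeR, without knockdown libraries 3_2 and 3_3, where the log2 fold change was 0.14 and the adjusted p 0.0605. It was also lost without scrambled replicate 1 or 2 (adjusted p = 0.103 and 0.118, edgeR) and without knockdown replicate 2 or 3 (0.0873 and 0.0612).

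XRCC4, the partner that stabilises ligase IV, was at 0.14 (SE 0.054, adjusted p = 0.0767, edgeR) with groups that did not overlap. The XRCC4-like genes NHEJ1 and PAXX, which bridge the ends, were at -0.09 and -0.05. NHEJ1 shares 65.4% of its exon length with another annotated gene on its strand and is uncertain. The genes that hold the ends were not called. PRKDC stood at 1915, 1918 and 1913 CPM in scrambled and at 1907, 1913 and 1984 CPM in knockdown samples, with a log2 fold change of 0.01 and a 95% interval from -0.03 to 0.06. XRCC5 and XRCC6 were at 0.0025 and -0.0072, with intervals from -0.05 to 0.06 and from -0.06 to 0.04.

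None of the 5 end processing genes was called. The nuclease gene DCLRE1C, which encodes Artemis, was at -0.06, the gap-filling polymerase genes POLL and POLM at -0.05 and -0.10, and APTX, which removes AMP left by failed ligation, at -0.03. APLF stood at 2.32, 2.45 and 2.35 CPM in scrambled and 2.43, 2.76 and 2.38 CPM in knockdown samples. Its groups overlapped, with a log2 fold change of 0.09 and an SE of 0.10.

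**Figure D3:**
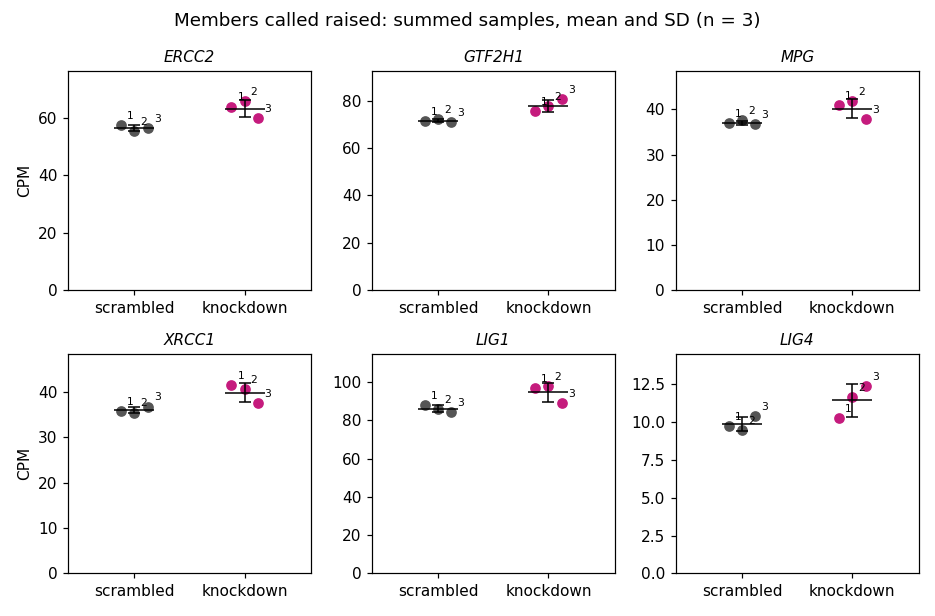
CPM of the 6 raised repair genes in each summed sample (points, numbered by replicate) with mean and SD of 3 samples per group, each panel on a linear axis from 0. Knockdown sample 3 is the lowest of its group for ERCC2, XRCC1, LIG1 and MPG and the highest for GTF2H1 and LIG4, and only LIG4 has overlapping groups.

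The sequence upstream of the start was examined for the raised genes because they were called in the same direction. Their share of the members, 11.3%, was near the 11.1% raised among all tested genes. RefSeq promoters (GRCh38.p14) matched 48 of the 53 members, and the 150 bases before the start were searched on both strands. The motif TGCGCA, the core of the NRF1 site, occurred in 4 of the 6 raised genes, in 20.8% of the matched members and in 8.87% of the 11523 promoters of tested genes. The E2F motif TTCCCGCC occurred in the other 2, in 3 of the 48 members and in 2.79% of those promoters. The values for members include the raised genes. Among the motifs searched, the E2F match is displayed where a raised gene has one and the TGCGCA match otherwise. The 30 bases around a match are shown with the motif in capitals, 5′ to 3′ on the strand of the gene:
ERCC2: ctcgcttttccgTGCGCAcgcgcagtatcc
MPG: tccgtccccttcTGCGCAggcgccgctccg
XRCC1: gcctcgcgcgctTGCGCActttagccagcg
LIG4: ctcttccgagcaTGCGCAgaagccgctgcc
GTF2H1: gaaacgaaacaGGCGGGAAcccgtggggga
LIG1: cttcaccccttTTCCCGCCctcctcccatt
They lie at chr19:45370694-45370723 (ERCC2, minus strand), chr16:78191-78220 (MPG, plus), chr19:43575551-43575580 (XRCC1, minus), chr13:108218366-108218395 (LIG4, minus), chr11:18322448-18322477 (GTF2H1, plus, motif on the other strand) and chr19:48170439-48170468 (LIG1, minus). The RefSeq starts lie inside the outermost GENCODE starts of these genes, so the stretches fall within the gene spans given above, except that of LIG4, which extends past its span. XRCC1 has 2 matches and the one nearer to the start is shown. The GC box GGGCGG occurred in 28 of 48 members and 57.8% of the promoters of tested genes, CCGGAAG of ETS factors in 10 and 12.8%, CCAAT in 16 and 27.3%, and TATAAA in 0 and 3.70%. Of the 6 raised genes 3 held the GC box, 2 CCGGAAG, 1 CCAAT and 0 TATAAA. The GC box and the E2F motif can overlap, as they do in LIG1. A match describes these letters only, and the genes were chosen for their calls.

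Of 47 tested genes listed beside the members, most of which act in the same routes, 5 were raised and 0 lowered. The raised share of 10.6% is near the 11.1% of all tested genes, of which 7.49% were lowered. In this list 2 genes had a negative change at an unadjusted p below 0.05. DESeq2 called 5 too. The median log2 fold change of these genes was 0.02. POLD4, the small subunit of DNA polymerase delta that fills repair gaps, rose by 0.20 on the log2 scale, from 15.1 ± 0.658 to 17.4 ± 0.572 CPM (SD, n = 3, adjusted p = 0.00535, edgeR). MNAT1, which belongs to the kinase part of TFIIH, rose by 0.19 (adjusted p = 0.0108, edgeR), and its kinase partners CDK7 and CCNH were at 0.01 and 0.02. XAB2, an XPA-binding protein, rose by 0.12 (0.0144), and PARG, which removes poly(ADP-ribose), by 0.11 (0.0174). ALKBH3, which reverses alkylation directly and so lies outside these routes, rose by 0.15 (0.0383). In all 5 the knockdown samples lay above the scrambled samples. The count of called genes in this list ranged from 1 to 17 as single replicates were left out, and was 17 without knockdown libraries 3_2 and 3_3. The called share of all tested genes moved as well. It ran from 11.04% to 29.85% in the fits that left out a replicate, and was 32.0% when those 2 libraries were removed.

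Which members were called depended on the samples used. In 31 of the 47 uncalled members no alternative gave a call. Another 5, namely XPA, DDB1, ERCC6, ERCC8 and XRCC4, were called raised under 2 or 3 of 18 alternatives, and 11 were called lowered under 1 to 8, led by MLH3, LIG3 and MSH6. Leaving out knockdown libraries 3_2 and 3_3 gave 6 raised and 6 lowered members, 22.6% of the 53, beside 32.0% of all tested genes. GC correction gave 8 raised and 7 lowered, or 28.3% beside 31.5%. Estimates kept 1 sign in 38 of the 53 members over all settings, 19 positive and 19 negative. The sign was stable for 14 of 18 genes in nucleotide excision repair and 12 of 18 in base excision and single-strand break repair. Both pathways had 5 such genes negative. In end joining the sign was stable for 9 of 12 genes, 6 of them negative, and in mismatch repair for 3 of 5, all 3 negative. Calls gained and signs kept over the alternatives were not counted over all tested genes. The alternatives share samples, and some called more of all tested genes. These were 30.2% with libraries entered singly and 31.8% when summed by the second number.

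**Figure D4:**
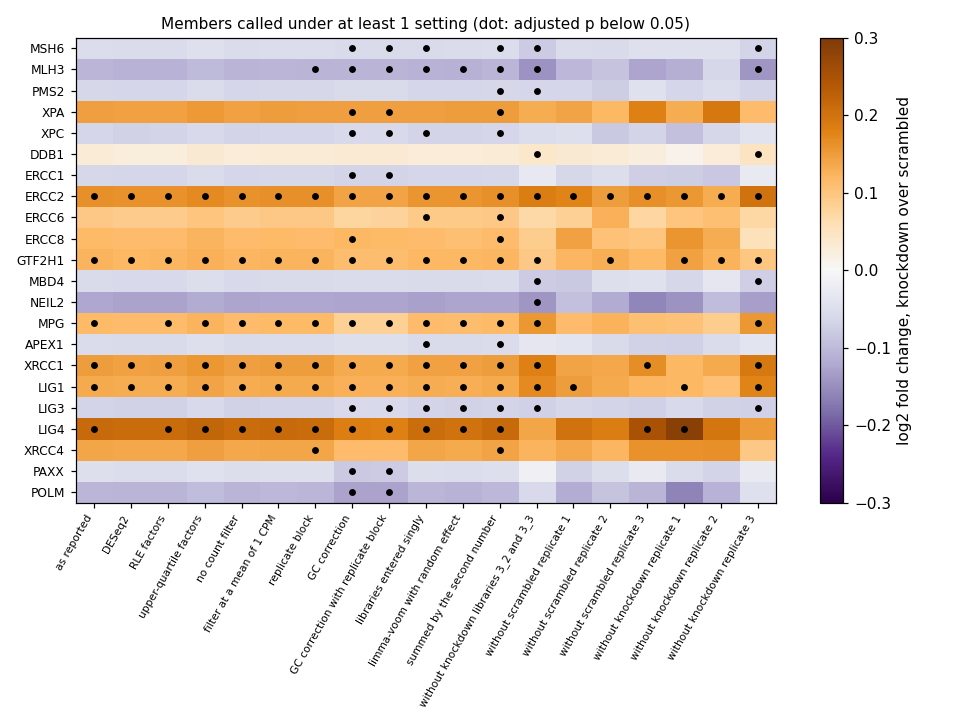
Log2 fold change (colour, knockdown over scrambled) of the 22 members called under at least 1 setting, 1 row per gene, with the values as reported in the first column and 18 alternatives beside it; a dot marks an adjusted p below 0.05. ERCC2 has a dot in every column, and MLH3, LIG3 and MSH6 gain dots as lowered genes when knockdown libraries 3_2 and 3_3 or knockdown replicate 3 are left out.

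Each library's deviation from the mean of all 18 was correlated by rank with transcript GC content across genes. Knockdown libraries 3_2 and 3_3 were lowest, at -0.391 and -0.456, and the other 16 libraries ran from -0.317 to 0.312. The value of -0.317 was that of scrambled library 3_1, which stayed in when those 2 were left out. The knockdown libraries that remained ran from -0.0236 to 0.312 and the scrambled ones from -0.317 to 0.181. Whether that removal itself made the groups unequal in GC content was not tested. Across the 12 end joining genes the log2 fold change fell with GC content, with a Spearman correlation of -0.734, from LIG4, XRCC4 and APLF at low GC content to POLM and PAXX at high. It was -0.510 without those libraries and -0.832 after GC correction. In base excision and single-strand break repair (18 genes) it had the other sign, 0.311, and 0.478 without those libraries. It was -0.121 in nucleotide excision repair (18 genes) and -0.500 in mismatch repair (5 genes). Over all 53 members it was -0.158, and 0.0722 without those libraries, and over 15110 tested genes with a GC value it was 0.0207. These correlations are across genes that share the same libraries, and genes are not independent replicates. The part of GC content in the calls was not tested beyond these values.

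**Figure D5:**
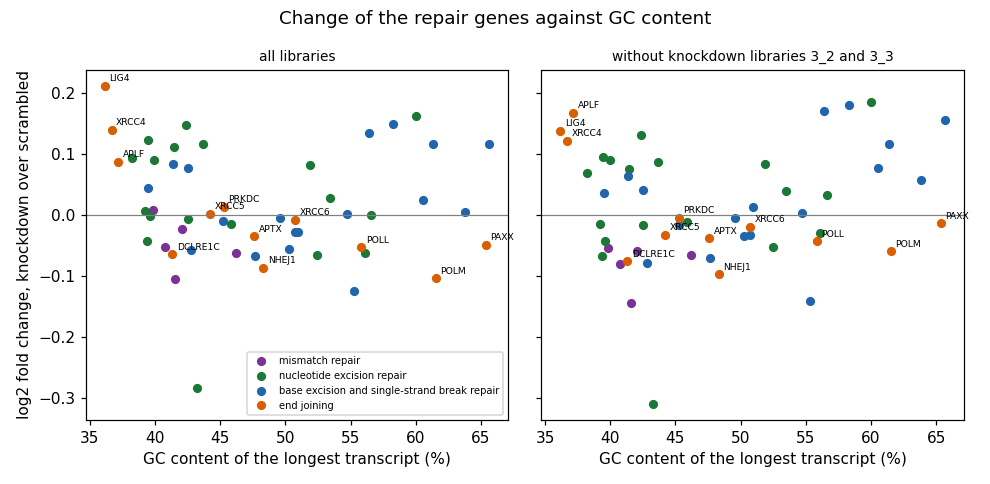
Log2 fold change of the 53 repair genes (vertical axis, knockdown over scrambled) against GC content of the longest transcript (horizontal axis, percent), coloured by pathway, with all libraries on the left and without knockdown libraries 3_2 and 3_3 on the right. The labelled end joining genes slope downward, with a Spearman correlation of -0.734 on the left and -0.510 on the right.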

How the data were processed

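Per the submitters' processing notes, reads were processed with Trim Galore, STAR and featureCounts on GRCh38. For their versions, and for the strand setting and annotation used in counting, the sources used here give nothing. The authors deposited whole-number counts for each gene symbol without normalization, and the labels' protocols name a directional kit with ribosomal RNA depletion.

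Technical libraries were summed over the first number in the library name, 3 per sample. Counts were tested with edgeR 4.0.16 (R 4.3.3) by its quasi-likelihood test (robust fit) after filterByExpr and TMM scaling, and p-values were adjusted by Benjamini-Hochberg over all 15678 genes tested. Called means an adjusted p below 0.05, raised or lowered. All 95% intervals are the SE times the normal quantile, which makes them narrower than the test implies. That of MSH6, from -0.104 to -0.00019, leaves out 0 at an unadjusted p of 0.0620 in edgeR. The members, lists and tests were chosen with earlier results of these data known. By rule, all 6 sample values are given for called members, for the member with the smallest adjusted p where a pathway had no call, and for the highest and lowest member of each pathway per length. Values of other members, and MSH6 and LIG3 in more detail, follow their order by role, and CDK7, CCNH and overlapping genes were named after their values were seen. A few marker genes are not reported here.

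The alternatives comprised RLE and upper-quartile factors, other filters, DESeq2 1.42.0, the replicate block, GC correction by lowess (span 0.3, GC content known for 96.4% of tested genes), libraries entered singly, limma-voom (limma 3.58.1), sums by the second number, removal of knockdown libraries 3_2 and 3_3 and of each replicate. Positions, exon lengths and GC content came from GENCODE 29. On simulated counts for knockdown against scrambled (15678 genes), 24.5% of genes changed 1.1-fold, 57.1% at 1.2-fold, 81% at 1.5-fold and 87.5% at 2-fold were recovered, with 7 false calls among 15478 unchanged genes. Only 53, 49, 42 and 56 genes were changed, in that order, drawn from all tested genes. In the data 18.6% of tested genes were called, so adjustment was stricter in the simulation. Its rates may be lower than those for the members. Tables and figures were made in Python 3.11.15 with pandas 2.3.3 and matplotlib 3.10.9.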

Additional observations from a re-analysis of the deposited data

Results flagged for a closer look

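Single libraries were examined for values far from the rest of their group: in 106 groups of 9 libraries (53 genes in each of the 2 treatments), a library stood out when its gap to the nearest value divided by the range of the group exceeded the 95% critical value of Dixon's test for 9 values. Chance gives about 1 such group in 20, and 6 of the 106 (5.66%) met it. LIG1 was lowest in scrambled library 3_2 at 80.3 CPM, where the next library was at 84.8 CPM. MLH3 was lowest in the same library at 29.4 CPM, with the next at 31.3 CPM. TDG was lowest in scrambled library 1_2 at 76.7 CPM, with the next at 86.4 CPM. RAD23B was highest in scrambled library 2_2 at 250.3 CPM against 243.7 CPM, and highest in knockdown library 3_3 at 253.6 CPM against 242.2 CPM. XRCC6 was highest in knockdown library 3_3 at 377.7 CPM, with the next at 363.7 CPM.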

How the results depend on the processing

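Of the 6 raised members none changed sign, and ERCC2 alone kept its call under all 18 alternatives. Over all genes, 1127 to 2482 were raised and 623 to 2280 lowered as each replicate was left out. Lowered genes numbered 2632 with GC correction, 2036 with libraries entered singly, 2389 when summed by the second number and 2426 without knockdown libraries 3_2 and 3_3. Raised members numbered 10 when summed by the second number and 2 to 6 in leave-one-out fits. Lowered members numbered 7 with GC correction, 5 with libraries entered singly, 2 in limma-voom, 6 when summed by the second number, 6 without those libraries, and 0 to 4 in leave-one-out fits.

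Called members by pathway, in the order mismatch, nucleotide excision, base excision and end joining, were 2, 6, 4 and 3 with GC correction, 2, 4, 5 and 1 with libraries entered singly, 3, 6, 5 and 2 when summed by the second number, and 3, 3, 6 and 0 without knockdown libraries 3_2 and 3_3. Limma-voom called 1 in mismatch repair, and DESeq2 0 in end joining. Leave-one-out fits called 0 to 2, 1 to 3, 0 to 5 and 0 to 1 in that order. The other pathway genes called numbered 15 with GC correction, 11 with libraries singly, 14 when summed by the second number, 17 without those libraries and 1 to 17 in leave-one-out fits.

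Deviations of same-numbered samples from their group means had correlations of 0.0302, 0.0114 and 0.0113, and not every sample correlated best with its own number, so the numbers were not taken to pair the samples. With the replicate block 1772 genes were lowered, 1 member was lowered (MLH3), 1 mismatch repair, 2 end joining and 10 other pathway genes were called. With the replicate block and GC correction together 2654 genes and 7 members were lowered, 2 mismatch repair, 5 nucleotide excision, 3 end joining and 14 other pathway genes were called. Of all tested genes 25.4% were called with the replicate block and 31.7% with GC correction added. Depth limits ERCC5, NEIL1 and APLF most, with 165, 86 and 177 counts or fewer per summed sample. The 24.5% recovered at 1.1-fold in the simulation is for genes drawn from all tested genes and is not a rate for the members.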

Other observations

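Of the 53 members 4 lie on chromosome 19 (ERCC1, ERCC2, LIG1 and XRCC1), and 3 of them are among the 6 raised genes. This was noticed after the values were seen. Of 1127 tested genes on that chromosome 14.7% were raised and 4.61% lowered, beside 11.1% raised among all tested genes. With GC correction 203 of the 1127 were raised, a larger share than the 14.8% raised among all tested genes. The 174 lowered were 15.4% of the 1127, beside 2632 lowered of all 15678 tested genes. When knockdown libraries 3_2 and 3_3 were left out, 27.0% of the genes on chromosome 19 and 16.5% of all were raised. ERCC1, which encodes the partner of the ERCC4 nuclease, was at -0.06 on the log2 scale.

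The count of XRCC1 divided by that of LIG3, its partner ligase gene, was 0.407 ± 0.00984 in scrambled and 0.472 ± 0.0285 in knockdown samples (SD, n = 3). The single values were 0.402, 0.401 and 0.419 in scrambled and 0.497, 0.479 and 0.441 in knockdown samples. These ratios could not overlap, because XRCC1 lay higher and LIG3 lower in every knockdown sample than in any scrambled one. This pair was chosen after the values were seen.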
